A study of Mus musculus with 12 samples.

Results

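RNA-seq was used to compare Th9 cells that had been treated with EpA with Th9 cells that had received its vehicle, DMSO. EpA (endomelipeptide A) is a cyclic lipopeptide of the surfactin kind, and DMSO is the solvent in which it is given. Naive CD4+ T cells from spleens of C57BL/6J mice were activated through CD3 and CD28 by antibodies and turned into Th9 cells by IL-4 (10 ng/mL) together with TGF-β (1 ng/mL), while antibodies blocked IL-12 and IFN-γ. The study describes its mice as matched for sex and as 6 to 8 weeks of age, and which sex was used for these cultures is not given. Both groups shared this culture, and 1 of them received 10 μM EpA. RNA was taken on day 4, so the values describe 1 dose and 1 time. The comparison uses 6 of the 12 libraries of the series, 3 with DMSO and 3 with EpA. The other 6 libraries came from cells given 5 μM fatostatin, an inhibitor of SREBP, alone or together with EpA. The members are all genes whose level averaged 0.1 FPKM or more across all 12 libraries, which were 13733 of the 32051 genes in the table. FPKM is the number of reads on a gene per kilobase of its exons and per fixed number of sequenced reads, so that levels can be compared between genes as well as between libraries. Positions of genes are those of the GENCODE annotation of GRCm38.

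Th9 cells are CD4+ helper T cells that make IL-9. IL-4 acts through STAT6 and GATA3, TGF-β acts through SMAD proteins and PU.1, and signals from the T cell receptor and CD28 act through BATF, IRF4, NFAT, and NF-κB, and these inputs meet at the Il9 gene. The same receptor signals also set how far a T cell leaves the naive state, which homing and checkpoint receptors it shows, and how much it divides. The sections that follow describe these programs, and Il9, Il13, Lta, and glycolysis are left aside except where a value is needed for scale.

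The labelled cell type was checked against its markers. The T cell genes Cd3e, Cd3d, Cd3g, Cd4, Cd5, Thy1, Lck, and Trbc2 were high in every library, with a summed level of 1208 to 1237 FPKM with DMSO and 998 to 1006 FPKM with EpA. Of these 8 genes, 7 fell and Cd4 rose (adjusted p below 0.05). Of the Th9 markers, Il9 was at 51, 57.7, and 55.1 FPKM with DMSO and 619.9, 652, and 648 FPKM with EpA, Batf went from 75.5 ± 1.51 to 95.3 ± 1.94 FPKM, Irf4 from 156 ± 1.51 to 143 ± 1.19 FPKM, Gata3 from 50.4 ± 2.4 to 46.4 ± 1.24 FPKM, and Stat6 from 45.4 ± 0.595 to 48.1 ± 1.05 FPKM. Spi1, which codes for PU.1, was at 0, 0.0363, and 0.0171 FPKM with DMSO and 0.056, 0.168, and 0.0964 FPKM with EpA, below the filter on low levels, and was not tested. Markers of NK cells summed to at most 0.301 FPKM, those of dendritic cells to at most 0.37 FPKM, those of neutrophils to at most 0.938 FPKM, those of erythroid cells to at most 0.71 FPKM, those of macrophages and monocytes to at most 1.84 FPKM, those of mast cells and basophils to at most 1.96 FPKM, and those of stromal and endothelial cells to at most 2.96 FPKM in any of the 6 libraries. Clec9a, Siglech, Elane, Col3a1, and Cdh5 were listed at 0 in all 6. The mast cell and basophil markers summed to 0.971 to 1.11 FPKM with DMSO and 1.18 to 1.96 FPKM with EpA, and 1 rose. Those of macrophages and monocytes summed to 1.33 to 1.44 FPKM with DMSO and 1.28 to 1.84 FPKM with EpA, and 1 rose. Among dendritic cell markers 1 fell, as did 1 B cell marker and 1 stromal and endothelial marker. The part of such cells in the changes of weakly expressed genes was not tested. The 6 B cell markers summed to 6.01 to 7.93 FPKM with DMSO and 5.25 to 6.25 FPKM with EpA, most of it Cd79b, and the stromal and endothelial sum was nearly all Pecam1. Cd8b1 was at 7.9, 7.11, and 7.79 FPKM with DMSO and 7.02, 7.8, and 7.58 FPKM with EpA, and Cd8a fell from 1.81 ± 0.182 to 0.802 ± 0.0328 FPKM. The regulatory T cell markers Foxp3, Ikzf2, and Nrp1 summed to 3.69 to 4.21 FPKM with DMSO and 2.33 to 2.68 FPKM with EpA, and all 3 fell. In bulk RNA, fewer cells of a kind and less RNA per cell cannot be told apart.

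The steps of the FPKM values gave between 36019739 and 42780984 reads on genes per DMSO library and between 39189299 and 41713472 per EpA library. By the library totals that the same steps imply, 1 read on a gene of 1 kb was worth 0.023 to 0.0273 FPKM. A gene was tested with limma on log2(FPKM + 0.1), a scale on which the change of a weakly expressed gene is understated. It was called when its adjusted p was below 0.05 and its fold change at least 1.5. With these thresholds 198 genes (1.44% of those tested) were higher and 266 (1.94%) were lower with EpA. With the adjusted p alone 1958 genes (14.3%) were higher and 1801 (13.1%) were lower, and these shares are the background for the counts of the gene lists below. In 42.4% of the tested genes the 3 EpA values did not overlap the 3 DMSO values, and the median log2 fold change of all tested genes was 0.002. For 1 gene and 3 libraries per group, the smallest p of an exact two-sided permutation test is 0.1, so the test of each gene is that of limma, and a gene is said to have risen or fallen when its adjusted p was below 0.05. The labels do not say that the 3 replicates of a group came from separate mice or cultures, and p-values then measure only the spread between these libraries, which may be technical. The plot of change against level shows that most calls lie at low levels.

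**Figure D1:**
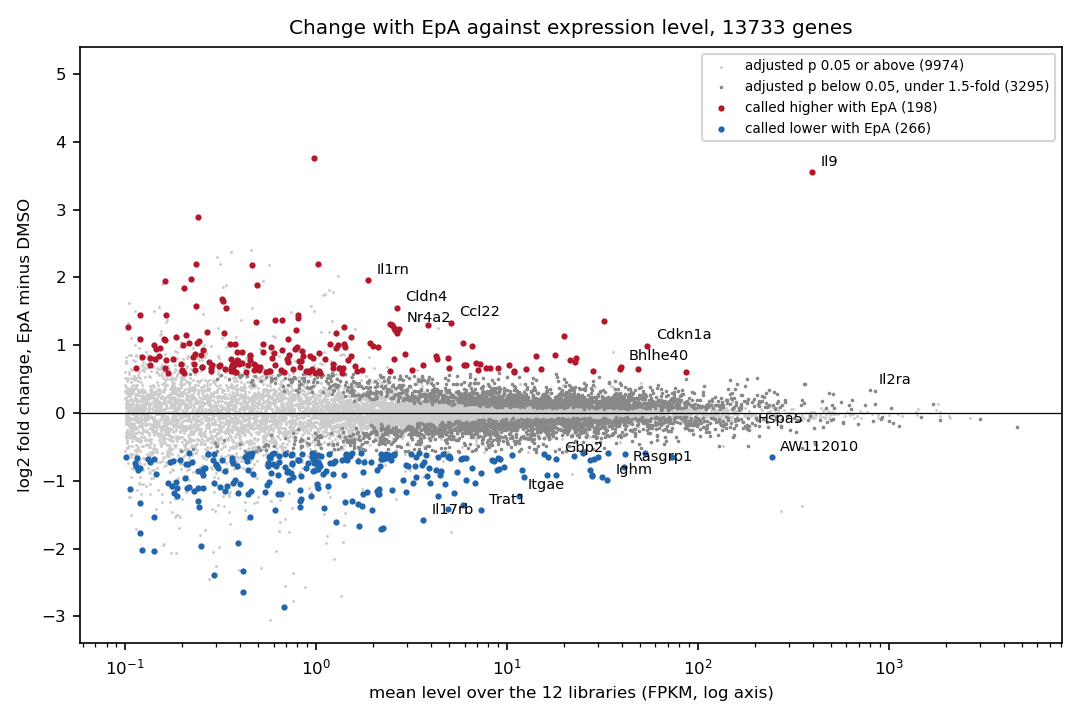
Each point is 1 of the 13733 tested genes, placed by its mean level over the 12 libraries (x axis, FPKM, log scale) and its log2 fold change, EpA minus DMSO (y axis); red and blue points were called higher (198) and lower (266), dark grey points passed the adjusted p alone, and light grey points did not pass. The called genes fan out toward low levels, and among highly expressed genes changes of 1.5-fold or more are few.

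Of the 38 lists, those with high median log2 fold changes included the hypoxia response (0.21), p53 targets (0.18), and secreted cytokines (0.14), and those with low medians included inhibitory receptors (-0.29), interferon-stimulated genes (-0.25), and naive and memory genes (-0.18). The order of the lists within each end changed with the processing. Without EpA replicate 2, for example, the median of inhibitory receptors was -0.18 and that of interferon-stimulated genes was -0.29. The strip plot of the lists shows every tested member.

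**Figure D2:**
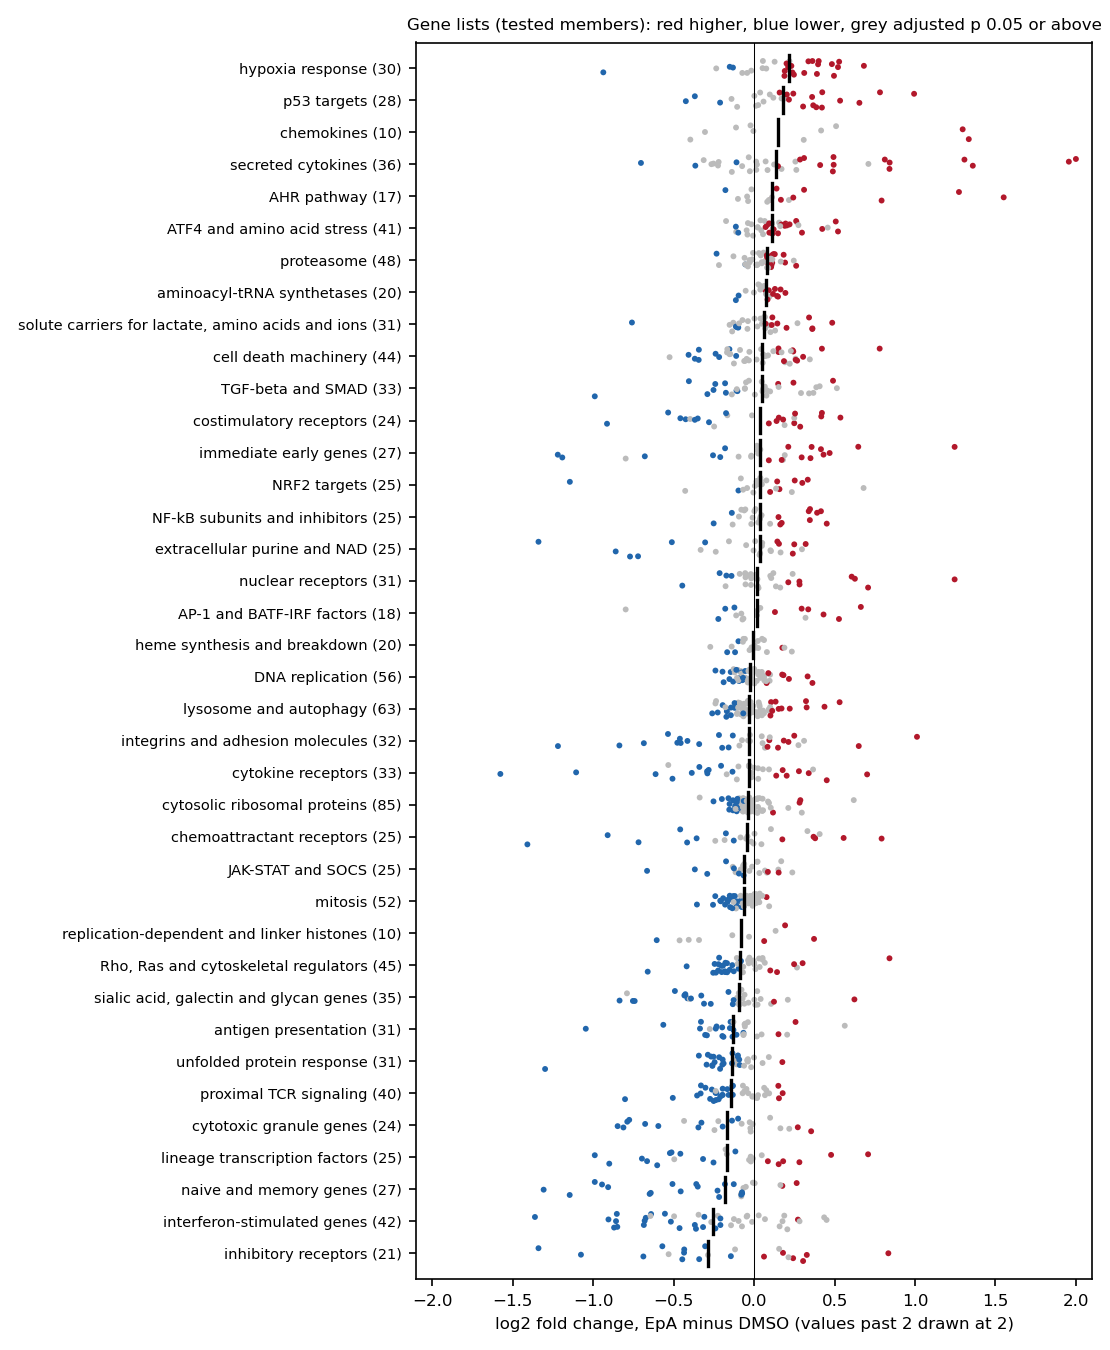
Each row is a gene list with its number of tested members in brackets, and each point is the log2 fold change of 1 member, EpA minus DMSO (x axis); red and blue points passed an adjusted p of 0.05 upward and downward, grey points did not, and black bars are list medians. Hypoxia response (median 0.21) and p53 targets lie to the right of 0, and interferon-stimulated genes (median -0.25), naive and memory genes, and inhibitory receptors lie to the left.

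Secreted factors rose more often than they fell. Of 36 tested genes for cytokines and other proteins listed as secreted, 14 rose, 3 fell, and 19 did not pass the test. Apart from Il9, the largest rise was that of Il1rn (chr2:24336853-24351494), which codes for the IL-1 receptor antagonist, a secreted protein that occupies the IL-1 receptor without signaling. Il1rn was at 0.538, 0.615, and 0.661 FPKM with DMSO and 2.87, 2.44, and 2.59 FPKM with EpA, so that every EpA library was far above each DMSO library (log2 fold change 1.96, SE 0.086, adjusted p = 5.14e-08). Il21, a cytokine that acts on B cells and CD8+ T cells, was at 1.15, 1.3, and 1.36 FPKM with DMSO and 3.48, 3.04, and 3.33 FPKM with EpA (log2 fold change 1.31, adjusted p = 1.13e-06). Both genes were weakly expressed without EpA, whereas Il24, an IL-10 family cytokine, was abundant in both groups. Il24 rose from 77.2 ± 0.829 to 109 ± 2.31 FPKM (mean ± SD, n = 3, here and below), a ratio of 1.41, and Il10, which restrains inflammation, rose from 110.1 ± 0.875 to 136 ± 1.96 FPKM. Il17f, a cytokine of Th17 cells, rose from 0.855 ± 0.149 to 1.57 ± 0.132 FPKM (adjusted p = 0.00408). Il6 was called at 0.0675, 0.0403, and 0.104 FPKM with DMSO and 0.207, 0.227, and 0.175 FPKM with EpA, which is 4 to 11 reads with DMSO and 18 to 22 with EpA, and its adjusted p rose above 0.05 when either DMSO replicate 1 or 2 or any EpA replicate was left out, with the replicate block (0.068), and with a pseudocount of 1 (0.055). In the other direction Tnfsf10, the death ligand TRAIL, fell from 10.3 ± 0.38 to 6.27 ± 0.29 FPKM (log2 fold change -0.70, adjusted p = 7.7e-07). Il4 and Il5, which Th2 cells make, did not pass. Il4 was at 8.66, 9.12, and 8.34 FPKM with DMSO and 8.52, 8.98, and 8.84 FPKM with EpA, and Il5 was at 0.747, 0.653, and 0.494 FPKM with DMSO and 0.769, 0.637, and 0.907 FPKM with EpA, and for both genes the groups overlapped.

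Among chemokine genes, 2 that lie near each other rose. Ccl22 (chr8:94745590-94751699) and Ccl17 (chr8:94810453-94812036) code for the ligands of CCR4, a receptor of type 2 and regulatory T cells. Ccl22 was at 2.08, 2.26, and 2.24 FPKM with DMSO and 5.9, 5.76, and 5.37 FPKM with EpA (log2 fold change 1.33, SE 0.0829, adjusted p = 7.61e-07), and Ccl17 was at 0.903, 0.952, and 1.12 FPKM with DMSO and 2.35, 3.03, and 2.39 FPKM with EpA (log2 fold change 1.30, SE 0.103, adjusted p = 4.84e-06). Neither gene overlapped between the groups. Of 10 tested chemokine genes, 2 rose and 0 fell, and the median was 0.15, or 0.03 without EpA replicate 2. Ccl5, a chemokine of cytotoxic cells, was at 2.11, 2.68, and 2.16 FPKM with DMSO and 2.12, 2.67, and 2.04 FPKM with EpA and did not pass.

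The promoters of the strongest rises were read for the AP-1 site TGACTCA, the sequence that FOS, JUN, and BATF dimers bind, because AP-1 genes themselves moved (below). Within the 250 bases before the transcription start, on either strand, the site was present in 21 of 142 genes called higher (14.8%), in 18 of 179 called lower (10.1%), and in 3.77% of the 9844 tested genes whose promoter was in the RefSeq table of GRCm38.p6. A match describes the letters only. With Il9, Il13, and Lta left aside, the 2 promoters shown are those of the genes called higher with a match, a mean of at least 1 FPKM, and the smallest adjusted p, chosen after their values were seen; capitals mark the site. They are the regions chr2:24336610-24336859 (plus strand) and chr5:134946935-134947184 (minus strand), each written 5′ to 3′, and the start is that of RefSeq, which can differ from the gene start of the annotation.
Il1rn: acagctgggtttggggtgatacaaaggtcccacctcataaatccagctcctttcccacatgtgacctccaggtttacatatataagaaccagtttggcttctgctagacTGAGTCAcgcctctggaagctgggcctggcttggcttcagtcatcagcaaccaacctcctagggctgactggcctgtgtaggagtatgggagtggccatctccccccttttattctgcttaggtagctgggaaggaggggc
Cldn4: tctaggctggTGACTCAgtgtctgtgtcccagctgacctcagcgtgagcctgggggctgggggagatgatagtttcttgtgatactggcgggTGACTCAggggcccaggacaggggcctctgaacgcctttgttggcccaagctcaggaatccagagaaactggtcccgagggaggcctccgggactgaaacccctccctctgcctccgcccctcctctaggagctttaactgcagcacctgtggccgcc

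Cldn4, which codes for a claudin of epithelial tight junctions, was at 0.873, 1.16, and 1.51 FPKM with DMSO and 3.92, 3.63, and 3.23 FPKM with EpA (log2 fold change 1.55, SE 0.151, adjusted p = 2e-05). It belongs to no list, and each EpA library was above each DMSO library.

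Receptors for cytokines moved in both directions. Of 33 tested receptor genes, 11 fell and 7 rose, with a median of -0.03 (-0.07 with a minimum of 1 FPKM or without EpA replicate 3). Il17rb (chr14:29996135-30008896), which codes for the receptor of IL-25, fell most, and was at 5.26, 5.04, and 4.81 FPKM with DMSO and 1.65, 1.57, and 1.64 FPKM with EpA (log2 fold change -1.58, SE 0.0578, adjusted p = 1.16e-08). Il9r, the receptor of IL-9, was at 1.35, 1.4, and 1.47 FPKM with DMSO and 0.64, 0.594, and 0.563 FPKM with EpA (log2 fold change -1.11, adjusted p = 1.59e-05). For both receptors the 3 EpA libraries lay well below the 3 DMSO libraries. Il4ra, the IL-4 receptor chain through which the polarizing cytokine signals, fell from 118 ± 1.42 to 93 ± 1.21 FPKM, and Il7r, the IL-7 receptor of resting T cells, fell from 15.3 ± 0.686 to 10.7 ± 0.248 FPKM. Il2ra, the high-affinity IL-2 receptor chain that marks activated T cells, was abundant in both groups and rose from 693 ± 8.18 to 876 ± 1.44 FPKM (log2 fold change 0.34, adjusted p = 6.73e-07).

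**Figure D3:**
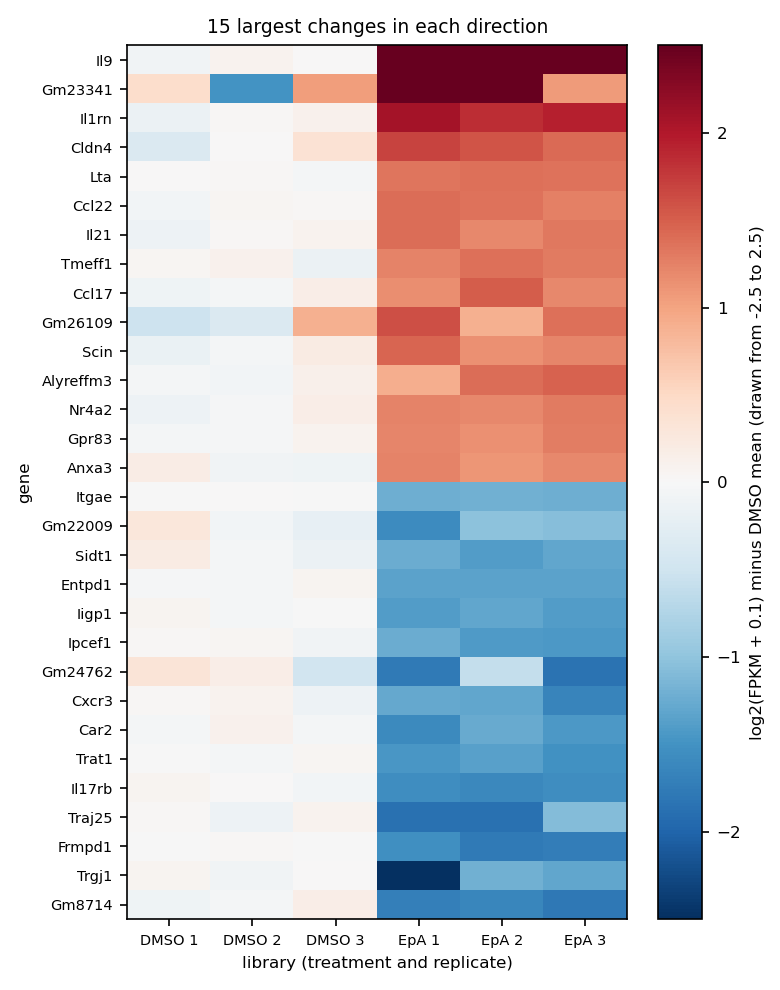
Rows are the 15 called genes with the largest log2 fold change in each direction among those averaging 1 FPKM or more whose 2 groups did not overlap, columns are the 6 libraries, and color is log2(FPKM + 0.1) minus the mean of the 3 DMSO libraries. In most rows the replicates of a group share nearly the same shade (Il1rn at 0.538, 0.615, and 0.661 FPKM with DMSO against 2.87, 2.44, and 2.59 with EpA), and the rows of the short RNA genes Gm23341, Gm26109, and Gm24762 and of the receptor segment Trgj1 vary within a group.

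Receptors that guide T cells to tissues moved in both directions, and the largest changes were falls. Among 25 tested chemoattractant receptor genes, 8 fell and 5 rose (median -0.04, and -0.09 without DMSO replicate 3). Cxcr3 (chrX:101731535-101734269), which binds interferon-induced chemokines and marks Th1 and CD8+ effector cells, was at 7.17, 7.46, and 6.44 FPKM with DMSO and 2.83, 2.8, and 2.16 FPKM with EpA (log2 fold change -1.41, SE 0.0962, adjusted p = 1.66e-06). Cxcr6, a receptor of tissue-resident T cells, fell from 6.31 ± 0.115 to 3.31 ± 0.0279 FPKM, and Ptger4, a receptor of prostaglandin E2, fell from 9.64 ± 0.41 to 6.98 ± 0.352 FPKM. Ltb4r1, a receptor of leukotriene B4, rose from 0.576 ± 0.0131 to 1.07 ± 0.0968 FPKM, and Ccr7, the receptor for entry into lymph nodes, rose slightly from 184 ± 0.105 to 208 ± 2.83 FPKM. The integrin genes showed the same kind of split. Of 32 tested genes for integrins and adhesion molecules, 13 fell and 8 rose. Itgae (chr11:73090583-73147446), the integrin chain CD103 that binds E-cadherin on epithelium and is induced by TGF-β, was at 19.99, 20.1, and 19.98 FPKM with DMSO and 8.48, 8.62, and 8.5 FPKM with EpA. The replicates were nearly equal within each group and far apart between them (log2 fold change -1.22, SE 0.0289, adjusted p = 4.36e-10). Itgb7, the partner chain of CD103, fell from 80.8 ± 1.8 to 58.6 ± 0.505 FPKM, Itgb3, a chain of the vitronectin receptor, fell from 33.6 ± 0.404 to 18.7 ± 0.132 FPKM, and Itgb2, a chain of LFA-1, fell from 119 ± 2.52 to 94.1 ± 1.3 FPKM. Alcam, the ligand of CD6, was also called lower. Plaur, the urokinase receptor, rose from 0.897 ± 0.114 to 1.9 ± 0.0502 FPKM (adjusted p = 0.00109).

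Genes of the T cell receptor pathway were lower on balance. Of 40 tested genes of proximal T cell receptor signaling, 22 fell (55.0%, against 13.1% of all tested genes) and 3 rose, with a median of -0.15. The largest fall in the list was that of Rasgrp1 (chr2:117279993-117343001), the exchange factor that links the receptor to RAS, which was at 49, 51, and 49 FPKM with DMSO and 28.6, 27.7, and 28.9 FPKM with EpA (log2 fold change -0.80, SE 0.0282, adjusted p = 9.03e-09). Cblb, a ubiquitin ligase that restrains the receptor, fell from 10.6 ± 0.384 to 7.45 ± 0.137 FPKM, and Cd3e, a chain of the receptor complex, fell from 53.3 ± 0.88 to 42.3 ± 1.17 FPKM. The falls included positive components and a brake. Trat1 (chr16:48730774-48772021), which codes for an adaptor that keeps the receptor complex at the surface, lies outside the list and fell further, and was at 7.13, 6.9, and 7.37 FPKM with DMSO and 2.54, 2.74, and 2.43 FPKM with EpA (log2 fold change -1.44, adjusted p = 7.95e-09). Zap70, the kinase recruited to the activated receptor, was at 52.8, 51.2, and 53.7 FPKM with DMSO and 50.2, 49, and 50.8 FPKM with EpA and did not pass (log2 fold change -0.07, adjusted p = 0.0871).

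Costimulatory and inhibitory receptors moved in both directions. Of 24 tested costimulatory receptor genes, 10 rose (41.7%) and 8 fell (33.3%). The falls named here outnumber the rises named, which does not hold for this list as a whole. Cd2, an adhesion receptor that aids T cell activation, rose from 194 ± 3.1 to 230.4 ± 1.63 FPKM. Cd28, the main costimulatory receptor of naive T cells, fell from 37.3 ± 0.752 to 25.7 ± 0.621 FPKM (log2 fold change -0.54, adjusted p = 1.35e-07), its relative Icos fell from 70.3 ± 1.3 to 52.3 ± 0.368 FPKM, and Slamf6, a receptor of memory and precursor T cells, fell from 1.76 ± 0.0659 to 0.887 ± 0.0316 FPKM. Of 21 tested genes for inhibitory receptors and related proteins, 10 fell and 6 rose, with a median of -0.29 (-0.17 with a pseudocount of 1 and -0.18 without EpA replicate 2). Entpd1 (chr19:40612366-40741602), the ectoenzyme CD39 that degrades extracellular ATP, was at 2.42, 2.39, and 2.58 FPKM with DMSO and 0.915, 0.908, and 0.91 FPKM with EpA (log2 fold change -1.34, SE 0.105, adjusted p = 4.27e-06). Tigit, a checkpoint receptor that competes with CD226, was at 10.3, 10.4, and 10.6 FPKM with DMSO and 7.55, 5.19, and 6.84 FPKM with EpA, and Cd96, which shares its ligand, fell from 25.5 ± 1.26 to 17.1 ± 0.729 FPKM. Pdcd1, which codes for PD-1, fell from 11.5 ± 0.0944 to 9.05 ± 0.585 FPKM. In the libraries with EpA none of these 4 genes reached the lowest DMSO value. Lilrb4a was called higher at low levels, from 0.226 ± 0.0577 to 0.478 ± 0.0683 FPKM, and it shares sequence with its neighbor Lilrb4b, which makes its reads uncertain.

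Genes of extracellular purine and NAD signaling also moved in both directions. Of 25 tested genes in this list, 6 fell and 5 rose. Beside Entpd1, the ATP receptor P2rx7 fell from 5.92 ± 0.0845 to 4.13 ± 0.227 FPKM, the ADP receptor P2ry1 fell from 3.16 ± 0.102 to 1.81 ± 0.0832 FPKM, Nt5e, the ectoenzyme CD73 that makes adenosine, fell from 8.12 ± 0.0911 to 6.56 ± 0.212 FPKM, and Dpp4, the surface peptidase CD26 that binds adenosine deaminase, fell from 4.21 ± 0.0322 to 2.52 ± 0.245 FPKM. Ada, adenosine deaminase itself, rose from 8.06 ± 0.34 to 10.1 ± 0.933 FPKM, and Cd38, which consumes NAD, rose from 6.85 ± 0.201 to 8.11 ± 0.374 FPKM.

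Genes of naive and memory T cells were lower. Of 27 tested genes, 18 fell (66.7%) and 2 rose. Klf2, the transcription factor that keeps T cells quiescent and circulating, was at 3.18, 2.42, and 2.96 FPKM with DMSO and 1.35, 1.02, and 1.34 FPKM with EpA (log2 fold change -1.15, SE 0.171, adjusted p = 0.000481). Id3, an inhibitor of E proteins kept in naive and memory cells, was at 9.58, 9.41, and 9.17 FPKM with DMSO and 4.69, 4.82, and 4.51 FPKM with EpA (log2 fold change -0.99, adjusted p = 3.49e-08). In both genes the highest EpA value was well below the lowest DMSO value. Evl, an actin regulator, fell from 39.5 ± 1.42 to 20.4 ± 1.07 FPKM, Slfn2, a Schlafen family gene needed for T cell quiescence, fell from 88 ± 2.25 to 56 ± 0.776 FPKM, its neighbor Slfn1 fell from 20.8 ± 0.564 to 11.1 ± 0.289 FPKM, and Sidt1 fell from 1.84 ± 0.249 to 0.681 ± 0.0392 FPKM. Dapl1, a gene of naive and memory cells, was also called lower. Actn1 and Ccr7 were the 2 that rose, from 9.24 ± 0.46 to 11.1 ± 0.636 FPKM in the case of Actn1, an actin crosslinker, and Ccr7 is given above.

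Transcription factors of T cell lineages were lower more often than higher. Of 25 tested genes, 11 fell and 6 rose, with a median of -0.17, which was -0.07 with a minimum of 1 FPKM and -0.10 without DMSO replicate 3. Stat4, which carries the IL-12 signal of Th1 cells, fell from 10.3 ± 0.101 to 6.44 ± 0.439 FPKM (log2 fold change -0.67, adjusted p = 5.36e-06), and Foxp3, the factor of regulatory T cells, fell from 1.87 ± 0.0795 to 1.2 ± 0.168 FPKM (adjusted p = 0.00152). Prdm1, which codes for BLIMP-1, fell from 1.06 ± 0.0911 to 0.614 ± 0.0611 FPKM, and Eomes, a factor of cytotoxic and memory T cells, was called lower at very low levels, from 0.22 ± 0.0441 to 0.0711 ± 0.0182 FPKM. Gata3, which Th9 and Th2 cells share, fell slightly from 50.4 ± 2.4 to 46.4 ± 1.24 FPKM.

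Early response genes did not move as 1 block. Of 27 tested immediate early genes, 11 rose and 6 fell, and the median was 0.04 (0.09 with a minimum of 1 FPKM, 0.07 without DMSO replicate 1, 0.09 without EpA replicate 2, and 0.07 without EpA replicate 3). Nr4a2, an orphan nuclear receptor induced by receptor signals, was at 1.31, 1.42, and 1.63 FPKM with DMSO and 3.52, 3.46, and 3.71 FPKM with EpA (log2 fold change 1.25, SE 0.0892, adjusted p = 2.19e-06). Its relative Nr4a3 was at 2.61, 2.62, and 2.6 FPKM with DMSO and 2.63, 2.76, and 2.56 FPKM with EpA and did not pass. Egr1, a zinc finger factor that rises with ERK signaling, was at 0.883, 0.901, and 1.21 FPKM with DMSO and 0.359, 0.431, and 0.316 FPKM with EpA (adjusted p = 5.63e-05), and Egr3, which induces brakes on T cell activation, was at 0.787, 0.744, and 0.726 FPKM with DMSO and 0.251, 0.353, and 0.225 FPKM with EpA (adjusted p = 0.000338). Nr4a2 was higher in all EpA libraries and both Egr genes were lower in all of them. Zfp36, which codes for tristetraprolin, a protein that destabilizes cytokine mRNAs, fell from 7.71 ± 0.301 to 4.78 ± 0.169 FPKM. Ier3, a stress response gene, rose from 10.4 ± 0.353 to 16.3 ± 0.592 FPKM, and Klf6 rose from 39.95 ± 0.954 to 51.2 ± 0.698 FPKM.

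AP-1 genes rose in part. Of 18 tested genes of the AP-1 and BATF-IRF families, 6 rose and 3 fell. Fosl2, which codes for the FOS relative FRA-2, was at 5.88, 5.91, and 6.21 FPKM with DMSO and 9.9, 9.56, and 9.22 FPKM with EpA (log2 fold change 0.66, SE 0.0412, adjusted p = 7.61e-07). Junb, a JUN family subunit, rose from 142 ± 2.89 to 191 ± 7.8 FPKM, and Batf, which pairs with JUN proteins and IRF4 at T cell genes, rose from 75.5 ± 1.51 to 95.3 ± 1.94 FPKM. Irf4 fell slightly from 156 ± 1.51 to 143 ± 1.19 FPKM. Of 25 tested NF-κB genes, 9 rose and 2 fell. Nfkb2, the subunit of the noncanonical pathway, rose from 25.4 ± 1.07 to 34.8 ± 0.153 FPKM, and Nfkbia, the inhibitor IκBα that NF-κB itself induces, rose from 29.2 ± 1.29 to 38.9 ± 0.301 FPKM. Traf1, an adaptor of TNF receptors, rose from 7.58 ± 0.155 to 9.66 ± 0.164 FPKM.

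Interferon-stimulated genes were lower. Interferons act on genes that defend the cell against viruses and intracellular bacteria, and IFN-γ was blocked by antibody in these cultures. Of 42 tested genes, 20 fell (47.6%, against 13.1% of all tested genes), 1 rose, and 21 did not pass. The median was -0.25, and it was -0.16 with a pseudocount of 1. The members that fell included several GTPases of the IRG and GBP families, which attack vacuoles that hold bacteria or parasites. Gbp5 was not among those that fell. Iigp1 was at 7.93, 7.33, and 7.52 FPKM with DMSO and 2.81, 3.04, and 2.82 FPKM with EpA (log2 fold change -1.36, SE 0.0491, adjusted p = 1.03e-08). Irgm1 (chr11:48861968-48871683) was at 13.4, 13.4, and 13.7 FPKM with DMSO and 9.24, 8.99, and 9.18 FPKM with EpA (log2 fold change -0.56, SE 0.0252, adjusted p = 7.05e-08). Gbp2 (chr3:142620602-142638008) was at 20.9, 20.3, and 18.9 FPKM with DMSO and 12.1, 12.6, and 12.8 FPKM with EpA (log2 fold change -0.67, SE 0.0382, adjusted p = 3.99e-07). None of these 3 genes overlapped between the groups, and Iigp1 fell furthest. Tgtp1 fell from 9.53 ± 0.21 to 5.89 ± 0.312 FPKM, and the genes Tgtp2, Gbp3, Gbp6, and Gbp7 were also called lower. Members of the Tgtp and Gbp families are close copies that lie together, so reads can be split between them. Samhd1, which degrades the nucleotides that viruses need, fell from 34.8 ± 0.0805 to 24.3 ± 0.423 FPKM. Mx1 was also called lower, from 0.2945 ± 0.0452 to 0.154 ± 0.0407 FPKM (adjusted p = 0.0255), and Isg20 and Xaf1 fell. The call of Mx1 was lost without DMSO replicate 2 or 3 or EpA replicate 1 or 3. It was also lost with a pseudocount of 1 and with only the 6 DMSO and EpA libraries in the fit. Other members did not pass, among them Ifit1 and Ifit3 at levels where a change is understated. Ifit1 was at 0.278, 0.129, and 0.191 FPKM with DMSO and 0.284, 0.378, and 0.249 FPKM with EpA, Ifit3 was at 0.313, 0.0842, and 0.237 FPKM with DMSO and 0.115, 0.0719, and 0.0812 FPKM with EpA, and Isg15 was at 1.17, 1.46, and 1.54 FPKM with DMSO and 1.72, 1.03, and 2.08 FPKM with EpA, and none of the 3 passed the test. Ifng was at 2.05, 2.02, and 2.54 FPKM with DMSO and 2.13, 1.49, and 1.66 FPKM with EpA, and the groups overlapped (log2 fold change -0.31, adjusted p = 0.0812), although the test was passed when EpA replicate 1 was left out (adjusted p = 0.011).

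The promoters of these genes were searched for the interferon-stimulated response element in the form of GAAA and GAAA with any 2 bases between them and for the gamma-activated sequence in the form of TTC and GAA with any 3 bases between them, each on both strands. The first was present in 18 of 31 tested genes of the list with a promoter (58.1%) and in 3.2% of all tested genes. The list holds known interferon-stimulated genes, so a share above that of all tested genes was built in. Within the list it was present in 9 of 13 genes that fell and in 9 of the other 18. The second was present in 7 of 13 genes that fell, in 4 of the other 18, and in 7.12% of all tested genes. The 2 forms can overlap in sequence. Across all called genes, 20 of 179 genes called lower (11.2%) and 6 of 142 called higher (4.23%) held the response element. The 3 promoters shown are those of members with a match and a low adjusted p, chosen after their values were seen, with the response element in capitals (RefSeq, GRCm38.p6, 250 bases before the start). They are the regions chr11:48871421-48871670 (minus strand), chr3:142620413-142620662 (plus strand), and chr11:48992247-48992496 (minus strand), and in Irgm1 a pair of matches overlap.
Irgm1: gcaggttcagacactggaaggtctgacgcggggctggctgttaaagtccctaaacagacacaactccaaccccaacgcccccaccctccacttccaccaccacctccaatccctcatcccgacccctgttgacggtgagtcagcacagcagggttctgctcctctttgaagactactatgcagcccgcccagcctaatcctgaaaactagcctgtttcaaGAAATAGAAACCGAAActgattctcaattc
Gbp2: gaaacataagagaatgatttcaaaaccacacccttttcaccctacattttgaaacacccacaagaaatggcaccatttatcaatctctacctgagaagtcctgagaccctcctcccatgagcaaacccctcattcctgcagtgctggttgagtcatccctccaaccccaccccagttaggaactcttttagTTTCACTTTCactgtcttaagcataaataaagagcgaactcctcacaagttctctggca
Tgtp1: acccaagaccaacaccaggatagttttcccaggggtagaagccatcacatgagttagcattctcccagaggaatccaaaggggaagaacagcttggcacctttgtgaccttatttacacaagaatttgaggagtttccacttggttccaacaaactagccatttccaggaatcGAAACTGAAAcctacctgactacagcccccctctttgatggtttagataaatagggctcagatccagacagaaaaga

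Genes of antigen presentation fell with the interferon-stimulated genes. Of 31 tested genes, 17 fell (54.8%) and 2 rose, with a median of -0.13. Nlrc5, the transactivator of class I genes, was at 6.27, 6.4, and 6.82 FPKM with DMSO and 4.53, 4.26, and 4.29 FPKM with EpA (log2 fold change -0.56, SE 0.0421, adjusted p = 3.02e-06). Tap1, the peptide transporter that loads class I molecules, fell from 35.7 ± 0.667 to 28.4 ± 0.231 FPKM, and B2m, the light chain of class I, fell from 1168 ± 12.7 to 1018 ± 34.6 FPKM. These falls ran through the regulator, the transporter, and the class I light chain. Cd1d1, which presents lipids to NKT cells, had the largest fall of the list, from 1.37 ± 0.251 to 0.604 ± 0.062 FPKM (log2 fold change -1.05, adjusted p = 0.000245). H2-DMa, which helps to load class II, fell from 17.1 ± 0.212 to 13.5 ± 0.186 FPKM, while the class II gene H2-Ab1 was higher, from 7.77 ± 0.117 to 9.31 ± 0.452 FPKM.

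Cytotoxic granule genes and NK receptor genes were lower. Of 24 tested genes, 11 fell and 2 rose, with a median of -0.17. Gzmb, the granzyme that triggers apoptosis in target cells, was the most abundant of those that fell and was at 149.6, 144, and 149 FPKM with DMSO and 118, 118, and 117 FPKM with EpA (log2 fold change -0.33, SE 0.0196, adjusted p = 6.21e-07). Gzma, a granzyme with another cleavage preference, fell from 35.6 ± 2.31 to 23.6 ± 1.5 FPKM, Ctsw, a cathepsin of cytotoxic cells, fell from 35.2 ± 0.143 to 22 ± 1 FPKM, and Nkg7, a granule membrane protein, fell from 8.02 ± 0.692 to 4.53 ± 0.519 FPKM. The NK receptor genes Klrd1, Klrk1, and Klrc1, which lie in 1 gene cluster, were called lower, Klrd1 from 4.88 ± 0.19 to 2.79 ± 0.329 FPKM and Klrc1 from 1.55 ± 0.0686 to 0.863 ± 0.0906 FPKM. The adjusted p of Klrc1 was 0.055 without DMSO replicate 1 and 0.063 without EpA replicate 2. Srgn, the proteoglycan that packs granules, rose from 131 ± 1.86 to 168 ± 2.9 FPKM. Beside these values, the NK cell markers Ncr1, Klrb1c, Klra8, and Klre1 summed to 0.113 to 0.209 FPKM with DMSO and 0.186 to 0.301 FPKM with EpA, and Cd8a fell while Cd8b1 did not pass. Of 12 tested segments of the T cell receptor gamma locus, 8 fell and 0 rose (median -0.71), and Trgc2 fell from 56 ± 2.69 to 37 ± 4.03 FPKM. The part of other T cells in these results was not tested.

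Genes of the unfolded protein response fell more often than they rose, most of them by small steps. This response adjusts the chaperones of the endoplasmic reticulum to the load of newly made secretory proteins. Of 31 tested genes, 20 fell (64.5%, against 13.1% of all tested genes) and 1 rose, and the median was -0.14. Hspa5 (chr2:34771970-34777547), the chaperone BiP that senses unfolded proteins, was at 202, 203, and 206 FPKM with DMSO and 173, 167, and 174 FPKM with EpA (log2 fold change -0.25, SE 0.018, adjusted p = 2.68e-06). Pdia6, a disulfide isomerase, was at 96.6, 94.4, and 98 FPKM with DMSO and 83.4, 82, and 82.9 FPKM with EpA (log2 fold change -0.22, SE 0.0185, adjusted p = 7.63e-06). In both genes the highest EpA value was below the lowest DMSO value, although the change was small. Manf, a secreted factor of the reticulum, fell from 54.7 ± 1.05 to 45.7 ± 1.13 FPKM, and Hyou1, a nucleotide exchange factor for BiP, fell from 33.2 ± 0.869 to 27.2 ± 0.327 FPKM. Derl3, which helps to extract misfolded proteins from the reticulum, was the 1 member called and fell from 1.08 ± 0.146 to 0.378 ± 0.0445 FPKM. Among the sensors, Ern1 was at 1.93, 1.84, and 2.05 FPKM with DMSO and 1.83, 1.83, and 2 FPKM with EpA and Atf6 at 3.26, 3.48, and 3.23 FPKM with DMSO and 2.83, 3.37, and 3.04 FPKM with EpA, and neither passed, while Eif2ak3, the sensor PERK, fell from 6.11 ± 0.199 to 5.54 ± 0.0969 FPKM.

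The endoplasmic reticulum stress element, CCAAT and CCACG with any 9 bases between them, was present on either strand in 8 of 16 promoters of members that fell, in 1 of the other 9, and in 18 of the 9844 promoters of all tested genes (0.183%). It is the site at which ATF6 and NF-Y act on chaperone genes. Of those 18 promoters, 9 belong to the list, which holds known genes of this response. The contrast with all promoters was therefore built into the list, and the part of ATF6 was not tested. The 2 promoters shown have the smallest adjusted p among members with a match and were chosen after their values were seen, with the element in capitals. They are chr2:34771840-34772089 and chr12:17266339-17266588, both on the plus strand.
Hspa5: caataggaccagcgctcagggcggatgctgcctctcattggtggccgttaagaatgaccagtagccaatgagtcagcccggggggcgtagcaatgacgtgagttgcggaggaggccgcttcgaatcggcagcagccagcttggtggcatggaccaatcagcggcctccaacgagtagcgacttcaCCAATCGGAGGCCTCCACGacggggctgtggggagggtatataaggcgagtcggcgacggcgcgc
Pdia6: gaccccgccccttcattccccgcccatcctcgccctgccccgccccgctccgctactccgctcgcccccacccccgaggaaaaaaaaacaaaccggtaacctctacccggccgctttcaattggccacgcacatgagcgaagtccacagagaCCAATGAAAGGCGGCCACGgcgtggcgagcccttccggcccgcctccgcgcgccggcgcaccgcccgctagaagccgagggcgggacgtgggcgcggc

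Genes of the hypoxia response rose. HIF-1 is a transcription factor whose alpha subunit is stabilized when oxygen is low and is also raised by receptor signals in T cells, and besides glycolysis it controls genes for mitophagy, collagen modification, and blood vessel growth. Of 30 tested genes, none of which codes for a glycolytic enzyme, 18 rose and 3 fell, while 14.3% of all tested genes rose. Hif1a (chr12:73901375-73947530), which codes for the alpha subunit itself, was at 93.3, 92.4, and 92.6 FPKM with DMSO and 123, 122, and 121 FPKM with EpA (log2 fold change 0.40, SE 0.0194, adjusted p = 1.27e-07). Bhlhe40, a repressor induced by hypoxia and by T cell activation, was at 27.2, 26.8, and 27.7 FPKM with DMSO and 43.1, 43.3, and 45 FPKM with EpA (log2 fold change 0.68, SE 0.0225, adjusted p = 7.22e-09). Both were higher in every EpA library than in any DMSO library. Bnip3, a mitophagy receptor, rose from 56.3 ± 0.383 to 72.5 ± 1.12 FPKM, Ddit4, an inhibitor of mTORC1, rose from 161 ± 4.33 to 230.5 ± 2.82 FPKM, and Hilpda, a lipid droplet protein induced by hypoxia that was named by its level and not by the list, rose from 29 ± 2.35 to 45.4 ± 1.81 FPKM. Epas1, which codes for the related subunit HIF-2α, went the other way and was at 15.1, 15.9, and 16.8 FPKM with DMSO and 8.01, 8.44, and 8.34 FPKM with EpA (log2 fold change -0.94, adjusted p = 7.05e-08).

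The core of the hypoxia response element, ACGTG, is short and was present in 25.1% of all promoters searched. It was present in 13 of 15 promoters of members that rose and in 4 of the other 9. The list holds known genes of this response, so a share above that of all promoters was built in. Among all genes called higher it was present in 23.2%. The 2 promoters shown have the smallest adjusted p among members with a match and were chosen after their values were seen, with the core in capitals on either strand. In the palindrome CACGTG both strands match. They are chr12:73907617-73907866 (plus strand) and chr7:138909507-138909756 (minus strand).
Hif1a: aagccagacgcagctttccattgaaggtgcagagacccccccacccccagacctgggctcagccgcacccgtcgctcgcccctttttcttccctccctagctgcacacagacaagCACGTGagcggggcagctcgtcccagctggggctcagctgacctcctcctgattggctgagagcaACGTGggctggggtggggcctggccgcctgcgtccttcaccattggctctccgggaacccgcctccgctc
Bnip3: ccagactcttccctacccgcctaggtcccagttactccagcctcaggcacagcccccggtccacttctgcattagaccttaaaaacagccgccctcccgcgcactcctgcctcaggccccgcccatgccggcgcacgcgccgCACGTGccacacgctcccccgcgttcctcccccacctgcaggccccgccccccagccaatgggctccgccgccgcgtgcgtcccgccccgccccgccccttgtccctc

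**Figure D4:**
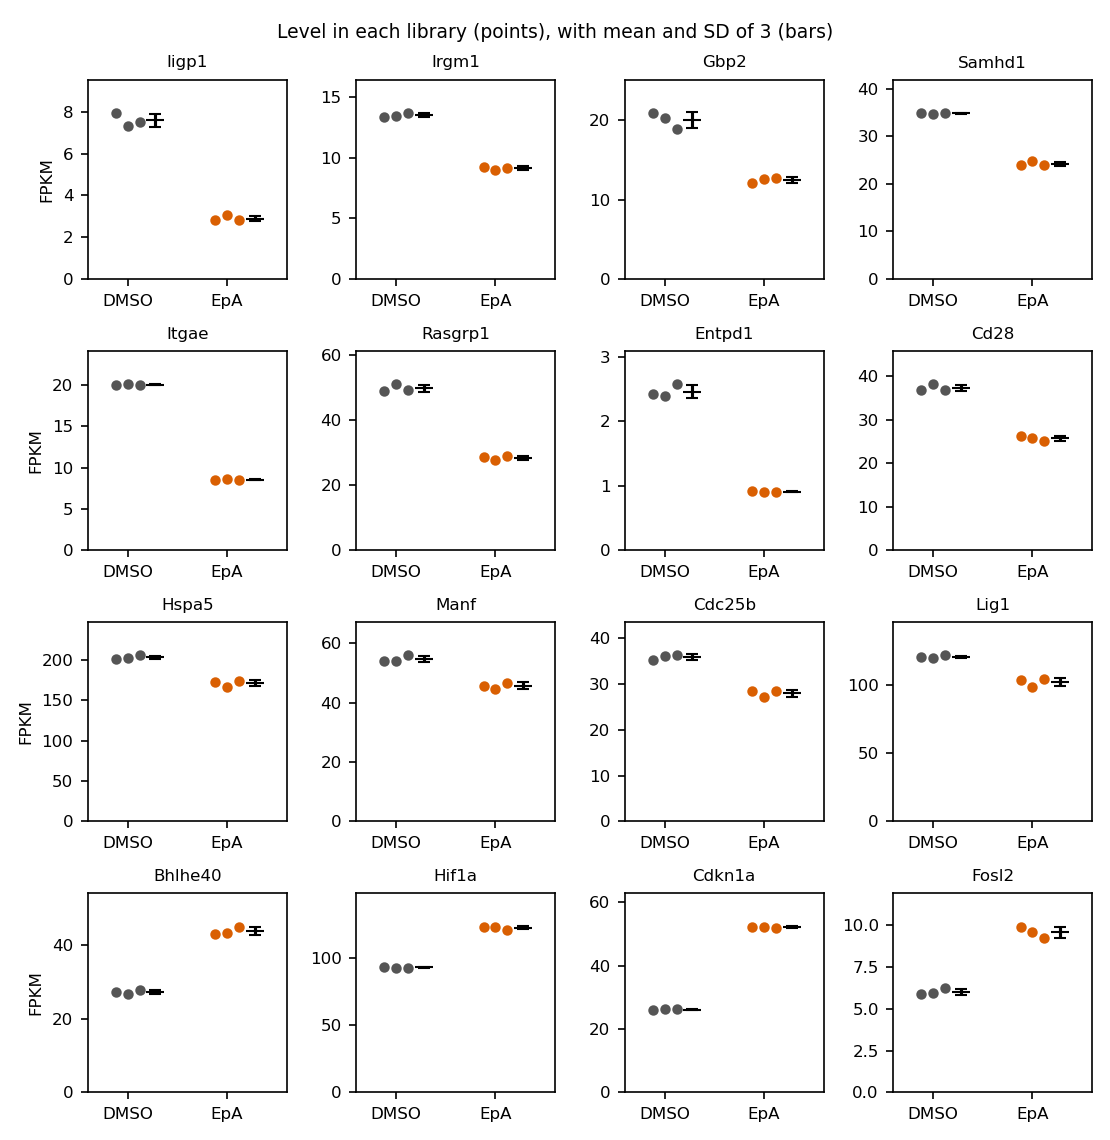
Each panel shows 1 gene, with the FPKM of the 3 DMSO libraries in grey and of the 3 EpA libraries in orange, and the bar beside each group is its mean and SD (n = 3); each y axis starts at 0. Interferon-stimulated genes fill the top row, surface and signaling genes the second, chaperone and cell cycle genes the third, and Bhlhe40, Hif1a, Cdkn1a, and Fosl2 the bottom row, and in no panel do the groups overlap (Hspa5 at 202, 203, and 206 FPKM with DMSO and 173, 167, and 174 with EpA).

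Targets of p53 rose together with the cell cycle inhibitor among them. Of 28 tested targets, 14 rose and 3 fell, with a median of 0.18 (0.12 without EpA replicate 2). Cdkn1a (chr17:29090976-29100727), which codes for the inhibitor p21, was at 26, 26.3, and 26.2 FPKM with DMSO and 52.3, 52.4, and 52 FPKM with EpA (log2 fold change 0.99, SE 0.0223, adjusted p = 4.26e-10). The ratio of the means was 2, and the replicates were nearly equal within each group. Plk2, a stress-induced kinase, rose from 10.6 ± 0.369 to 18.3 ± 1.09 FPKM, Phlda3, a repressor of AKT, rose from 8.33 ± 0.424 to 13.2 ± 0.198 FPKM, and Ccng1, a cyclin induced by p53, rose from 111 ± 1.81 to 143 ± 2.4 FPKM. Genes of the cell cycle itself fell more often than they rose, by small steps, and none of the mitosis and replication genes was called. Of 52 tested mitosis genes, 21 fell and 1 rose, with a median of -0.07, and of 56 tested replication genes, 13 fell and 7 rose, with a median of -0.03. Cdc25b, a phosphatase that starts mitosis, fell from 35.9 ± 0.593 to 28 ± 0.767 FPKM, Foxm1, the transcription factor of G2 and mitosis genes, fell from 26.4 ± 0.511 to 22.4 ± 0.106 FPKM, and Lig1, the replicative DNA ligase, fell from 121 ± 0.828 to 102 ± 2.91 FPKM. Ccnd2 and Ccne2, cyclins that drive entry into S phase, rose, Ccnd2 from 48.6 ± 0.587 to 61.2 ± 0.633 FPKM and Ccne2 from 16.3 ± 0.583 to 21 ± 0.508 FPKM. Cdkn1a and both cyclins were higher in the same libraries.

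Genes of the ATF4 program rose in small steps. ATF4 raises amino acid uptake and synthesis when its translation is induced. Of 41 tested genes, 17 rose and 2 fell, with a median of 0.11. Atf4 rose from 97.3 ± 1.71 to 111 ± 0.883 FPKM, Sesn2, a sensor that restrains mTORC1, rose from 7.44 ± 0.25 to 10.01 ± 0.298 FPKM, and Mthfd1, an enzyme of one-carbon metabolism, rose from 34.5 ± 0.742 to 39.5 ± 0.365 FPKM. The stress genes Ddit3, at 7.26, 7.6, and 7.29 FPKM with DMSO and 6.85, 6.36, and 7.28 FPKM with EpA, and Trib3, at 7.91, 7.17, and 7.74 FPKM with DMSO and 7.12, 8.73, and 8.09 FPKM with EpA, did not pass.

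Genes that shape the glycan coat and the actin skeleton fell more often than they rose. Of 35 tested glycan and galectin genes, 14 fell and 2 rose. Lgals3, a galectin that crosslinks glycoproteins, was at 23, 24.6, and 24.3 FPKM with DMSO and 13.2, 13.1, and 13.9 FPKM with EpA (log2 fold change -0.84, SE 0.0837, adjusted p = 2.58e-05), and Lgals9, another galectin, fell from 64.7 ± 1.45 to 51.5 ± 0.0826 FPKM. The sialyltransferase St8sia6 fell from 0.929 ± 0.0131 to 0.51 ± 0.00236 FPKM, and Gcnt2, which branches poly-N-acetyllactosamine chains, rose from 0.872 ± 0.0906 to 1.39 ± 0.0671 FPKM. Of 45 tested regulators of the cytoskeleton, 22 fell and 5 rose, with a median of -0.09. Arpc5, a subunit of the ARP2/3 complex, fell from 211 ± 2.38 to 186 ± 1.53 FPKM, and Rgs16, a brake on G protein signals, fell from 5 ± 0.733 to 3.12 ± 0.45 FPKM. Vim, the intermediate filament protein vimentin, rose from 441 ± 6.95 to 543 ± 9.79 FPKM, and Tubb2b, a beta-tubulin, rose from 1.17 ± 0.031 to 2.18 ± 0.15 FPKM.

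Other genes with large changes or high levels were not covered above. Scin, which codes for the actin-severing protein scinderin, was at 0.583, 0.636, and 0.782 FPKM with DMSO and 2, 1.58, and 1.68 FPKM with EpA (adjusted p = 7.63e-06). Anxa3, an annexin, rose from 1.42 ± 0.178 to 3.34 ± 0.174 FPKM, Gpr83, a receptor found on regulatory T cells, rose from 1.37 ± 0.0723 to 3.32 ± 0.155 FPKM, and Tmeff1, a transmembrane protein with follistatin domains, rose from 1.29 ± 0.123 to 3.33 ± 0.172 FPKM. On the other side Frmpd1 was at 2.25, 2.31, and 2.25 FPKM with DMSO and 0.722, 0.599, and 0.612 FPKM with EpA (adjusted p = 2.16e-07), Car2, a carbonic anhydrase, fell from 2.33 ± 0.152 to 0.806 ± 0.103 FPKM, and Ipcef1 fell from 1.88 ± 0.111 to 0.668 ± 0.0578 FPKM. Among the most abundant called genes, the host gene of miR-155, Mir155hg, rose from 32.4 ± 0.612 to 50.7 ± 1.86 FPKM, and Akr1c18, a steroid dehydrogenase, rose from 62.8 ± 1.83 to 95.1 ± 1.81 FPKM. AW112010, a transcript of activated lymphocytes, fell from 287 ± 7.75 to 183 ± 3.31 FPKM, Pros1, the TAM receptor ligand protein S, fell from 57.6 ± 1.21 to 38.1 ± 0.541 FPKM, and Ctse, an aspartic protease, fell from 37.8 ± 0.684 to 25 ± 1.03 FPKM. Ighm, the immunoglobulin heavy chain gene, was at 46.6, 45.4, and 46.1 FPKM with DMSO and 23.5, 22.4, and 23.4 FPKM with EpA (log2 fold change -0.99, adjusted p = 4.26e-10), while the B cell genes Ms4a1 and Pax5 had means of at most 0.0511 FPKM in either group, Cd79a was at 0.713, 0.84, and 0.821 FPKM with DMSO and 0.397, 0.568, and 0.502 FPKM with EpA, and Cd79b was at 5.08, 6.91, and 6.54 FPKM with DMSO and 4.66, 5.4, and 5.43 FPKM with EpA. The part of B cells in this result was not tested.

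The same comparison can be read in the other 6 libraries, since EpA was also given together with fatostatin and compared with fatostatin alone. These libraries gave no value to the change between EpA and DMSO, but they entered the same fit, in which all 12 share 1 estimate of the spread, and the filter on low levels. In that comparison 259 genes were called higher (1.89%) and 256 lower (1.86%). Of the 198 genes called higher with EpA against DMSO, 185 had the same sign, 137 passed the adjusted p in that direction (69.2%, against 16.2% of all tested genes), and 122 were called, which is 61.6% of the first list and 47.1% of the second. Of the 266 called lower, 246 had the same sign, 182 passed (68.4%, against 13.3% of all tested genes), and 156 were called, which is 58.6% of the first list and 60.9% of the second. Among genes that averaged 1 FPKM or more, 70 of 76 higher and 113 of 134 lower genes passed again. Itgae fell by 1.12 on the log2 scale in the libraries with fatostatin, Il17rb by 1.49, Iigp1 by 1.54, and Rasgrp1 by 0.82, and Il1rn rose by 2.39 and Bhlhe40 by 0.80. The medians of the lists there were 0.24 for the hypoxia response, -0.29 for interferon-stimulated genes, -0.16 for the unfolded protein response, and -0.21 for naive and memory genes. Genes that did not pass with fatostatin included Cyp1b1, an enzyme gene called higher on 239 to 253 EpA reads, at 1.55 without fatostatin and 0.35 with it (adjusted p = 0.133), where its means were 0.0056 FPKM with fatostatin alone and 0.034 FPKM with both. Il15ra, a chain of the IL-15 receptor, was called lower at -0.61 and was at 0.01 with fatostatin, and its call was lost without DMSO replicate 1 (adjusted p = 0.074), DMSO replicate 3 (0.073), or EpA replicate 1 (0.074), and with only the 6 DMSO and EpA libraries in the fit (0.066). The difference of the EpA effects did not pass for either gene (adjusted p = 0.173 for Cyp1b1 and 0.554 for Il15ra). Others were the short RNA genes Gm23341, at 2.20 without fatostatin and -1.07 with it, and Gm26109, at 1.29 and -0.36, whose calls were lost in most fits that left out 1 library.

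**Figure D5:**
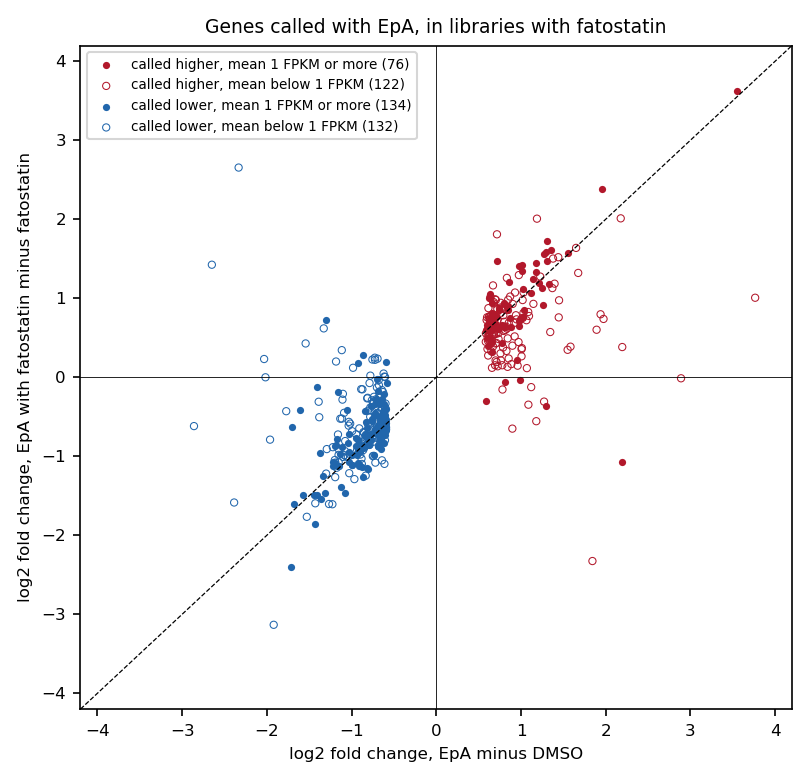
Each point is 1 of the 464 genes called with EpA against DMSO, placed by that log2 fold change (x axis) and by the log2 fold change of EpA with fatostatin minus fatostatin alone (y axis), which uses other libraries; filled points have a mean of at least 1 FPKM (76 higher and 134 lower), open points less, and the dashed line marks equal values. Most filled points lie along the line, and the points with opposite signs are mostly open.

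A test of the difference between the EpA effects with and without fatostatin found 6 of the 13733 genes (0.0437%) at an adjusted p below 0.05. Among them Cdkn1a rose by 0.99 on the log2 scale without fatostatin and by 0.74 with it (adjusted p of the difference = 0.0372). The rise of Cdkn1a was smaller with fatostatin, but leaving out any 1 library brought the number of such genes to between 0 and 2. That number was 0 with the replicate block or median ratio scaling and 1 with TPM scaling. It was 10 with a pseudocount of 0.01 and 20 with voom. The other 5 genes are given in the closing section.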

How the data were processed

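Total RNA of the cultured cells was sequenced as paired-end libraries, 3 per group, for which the study names Trim Galore for trimming, HISAT2 for alignment to the GRCm38 genome, and featureCounts for counting. The deposited table holds the FPKM that the authors computed from these counts, and the counts themselves are not used here. Strand use in counting is not given in the sources used here, so overlapping and antisense genes cannot be separated. The 301 repeated rows held equal values and were merged. With limma 3.58.1 in R 4.3.3, log2(FPKM + 0.1) of the 12 libraries was fitted with 1 mean per group and an intensity trend, and p-values were adjusted by Benjamini-Hochberg over 13733 genes. Calls needed a fold of at least 1.5 beside an adjusted p under 0.05. From FPKM and exon lengths, 98.1% to 98.3% of values gave whole reads within 0.02, which served for depth and for an alternative fit with voom. The method was also run on simulated data in which only genes with enough expected reads were changed. Its outcome is not used here, and it does not speak for calls at low levels. Members and lists were chosen with earlier results of these data known. Genes were named by fixed ranks (the largest changes at a mean of at least 1 FPKM without overlap, the most abundant called genes, and the smallest adjusted p within lists), and other list members were chosen after their values were seen. Some genes are not reported here.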

Additional observations from a re-analysis of the deposited data

Results flagged for a closer look

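For 6 genes the effect of EpA differed between cells with and without fatostatin, each with an adjusted p of 0.0372 in limma. The difference, effect with fatostatin minus effect without, was 0.29 for Cpox, an enzyme of heme synthesis, which rose by 0.17 without fatostatin and by 0.46 with it on the log2 scale. It was 0.23 for Cldnd1 (0.09 and 0.32), 0.33 for Rara, a retinoic acid receptor (0.02 and 0.35), and 0.49 for Nr4a3, an orphan nuclear receptor (0.02 and 0.51). It was 0.34 for Neat1, a nuclear long noncoding RNA (-0.10 and 0.24), whose own change without fatostatin no longer passed in 5 of the 6 fits that left out 1 library. It was -0.25 for Cdkn1a (0.99 and 0.74), the only 1 of the 6 with a smaller effect in the presence of fatostatin. Without any 1 of the 12 libraries, 0 to 2 genes remained past the threshold, and none remained with the replicate block or median ratio scaling.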

How the results depend on the processing

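The 464 called genes became 216 (78 higher, 138 lower) with a minimum of 1 FPKM, 141 (58 and 83) with a pseudocount of 1, 1494 (714 and 780) with a fold threshold of 1.2, and 138 (60 and 78) with a fold threshold of 2. Fewer genes are tested with the higher minimum, and a larger pseudocount shrinks the fold of weakly expressed genes. The counts past the adjusted p alone stayed within 1.5 times in all alternatives, and so did the called counts under the other alternatives, which were other scalings, fits with 6 libraries, without the intensity trend, with voom, and without each library. Of 3733 alternative values of 235 named genes, 3618 kept their direction and their side of the threshold, 106 lost the test, 1 gained it, and 8 changed sign. Changes near 0 that had not passed the test turned sign without 1 library, Nr4a3 (-0.009, EpA replicate 2), Il4 (-0.017, DMSO replicate 3; -0.004, EpA replicate 2), Ccl5 (0.082, DMSO replicate 2; 0.021, EpA replicate 1; 0.047, EpA replicate 3), and Cd8b1 (0.003, DMSO replicate 1; 0.018, EpA replicate 1). Over the single libraries left out, these 4 ranged from -0.009 to 0.045, -0.017 to 0.046, -0.138 to 0.082, and -0.072 to 0.018. The replicate numbers did not pair the libraries (correlations of same-numbered deviations of -0.088, 0.025, and 0.036), and the replicate block moved no count of called genes by over 1.5 times, but it left 0 of the 6 genes whose EpA effect differed with fatostatin. That number was 1 with TPM scaling, 20 with voom, 0 with median ratio scaling, 10 with a pseudocount of 0.01, and 0 to 2 with 1 of the 12 libraries left out, where the fits without a fatostatin library were added after seeing the data. With a minimum of 1 FPKM, list medians moved by more than the spread between replicates to 0.091 for immediate early genes, -0.074 for lineage transcription factors, -0.223 for naive and memory genes, -0.071 for cytokine receptors, 0.636 for chemokines, -0.014 for costimulatory receptors, -0.159 for T cell receptor signaling, -0.051 for TGF-β signaling, -0.210 for interferon-stimulated genes, 0.094 for the ATF4 program, 0.015 for histones. With no minimum, list medians moved by more than the spread between replicates to 0.093 for costimulatory receptors, -0.159 for T cell receptor signaling, 0.004 for TGF-β signaling, -0.210 for interferon-stimulated genes. With a pseudocount of 1, list medians moved by more than the spread between replicates to -0.112 for lineage transcription factors, -0.167 for inhibitory receptors, -0.115 for cytotoxic granule genes, 0.148 for p53 targets, -0.161 for interferon-stimulated genes, 0.084 for the ATF4 program, -0.120 for the unfolded protein response, -0.077 for glycan genes, 0.042 for solute carriers. With voom, medians were 0.210 for p53 targets and -0.285 for interferon-stimulated genes, and with a pseudocount of 0.01 the median of p53 targets was 0.211. With 1 of the 6 libraries left out, the list medians that moved ranged from 0.096 to 0.138 for the aryl hydrocarbon receptor pathway, 0.025 to 0.059 for NRF2 targets, 0.031 to 0.088 for immediate early genes, -0.215 to -0.099 for lineage transcription factors, 0.093 to 0.183 for secreted cytokines, -0.069 to -0.013 for cytokine receptors, -0.092 to -0.020 for chemoattractant receptors, -0.330 to -0.177 for inhibitory receptors, -0.159 to -0.141 for T cell receptor signaling, -0.066 to -0.043 for JAK-STAT signaling, -0.001 to 0.056 for TGF-β signaling, -0.213 to -0.132 for cytotoxic granule genes, 0.003 to 0.048 for cell death machinery, 0.115 to 0.187 for p53 targets, -0.317 to -0.230 for interferon-stimulated genes, 0.097 to 0.115 for the ATF4 program, -0.151 to -0.121 for the unfolded protein response, 0.063 to 0.087 for aminoacyl-tRNA synthetases, -0.033 to -0.018 for DNA replication, -0.040 to -0.019 for lysosome and autophagy genes, -0.141 to -0.093 for glycan genes, 0.021 to 0.066 for solute carriers, 0.061 to 0.079 for the proteasome, -0.235 to -0.035 for histones. Beyond the change in tested genes and in the pseudocount, the cause was not tested. In 32 of 38 lists the median kept its sign in all alternatives, and the exceptions were the AP-1, TGF-β, costimulatory, purine and NAD, heme, and histone lists. Of the called genes, 54 had at most 20 reads in each of the 6 libraries, which limits what can be seen in them.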

Other observations

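Of 17 tested genes of the aryl hydrocarbon receptor pathway, 8 rose and 1 fell (median 0.11), among them Cyp1b1, a cytochrome P450 that this receptor induces, from 0.286 ± 0.0246 to 1.03 ± 0.00737 FPKM, and Scin. Of 31 tested nuclear receptor genes, 7 rose and 4 fell, with Crabp2, which carries retinoic acid, rising from 1.43 ± 0.306 to 2.23 ± 0.178 FPKM. Genes of the proteasome rose by small steps (17 of 48, 2 fell, median 0.08), and so did those of aminoacyl-tRNA synthetases (9 of 20, 2 fell, median 0.07). Of 85 tested ribosomal protein genes, 16 fell and 3 rose (median -0.04).

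Of 63 tested lysosome and autophagy genes, 11 rose (17.5%) and 10 fell (15.9%), with a median of -0.03. These shares are close to the 14.3% and 13.1% of all tested genes. Ctsc, a cathepsin, fell from 20.6 ± 0.35 to 18 ± 0.283 FPKM. Gabarapl1, an autophagosome protein, rose from 15.6 ± 0.305 to 22.5 ± 0.374 FPKM, and Rragd, a GTPase that links amino acids to mTORC1, rose from 12.5 ± 0.262 to 16.9 ± 0.343 FPKM. Of 25 tested NRF2 targets, 6 rose and 2 fell (median 0.04), with Txnrd1, thioredoxin reductase, rising from 25.3 ± 0.43 to 31.9 ± 0.333 FPKM. Of 31 tested solute carriers, 9 rose and 4 fell, with the thiamine transporter Slc19a2 rising from 8.4 ± 0.0883 to 11.8 ± 1.02 FPKM and the lactate exporter Slc16a3 from 43.6 ± 1.21 to 56.1 ± 0.746 FPKM. Of 44 tested cell death genes, 10 rose and 8 fell, of 33 tested genes of TGF-β signaling, 3 rose and 9 fell, and of 25 tested genes of JAK and STAT signaling, 2 rose and 7 fell. Tgfbr1, a receptor chain of the TGF-β given to the culture, fell from 26.7 ± 0.558 to 21.8 ± 0.603 FPKM, and Id1 rose from 6.78 ± 0.329 to 9.59 ± 0.953 FPKM while Id3 fell. Of 20 tested heme genes, 1 rose and 3 fell, and the falls of Fech, Urod, and Slc48a1 each lost the test without DMSO replicate 2, without EpA replicate 2, or without EpA replicate 3. Of 10 tested histone genes, 3 rose and 1 fell, and H1f10, H1f0, and H1f3 lost the test in at least 1 fit that left out 1 library.

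Genes called in the same direction often lay near each other. Of 170 protein-coding genes called higher, 22 (12.9%) had another within 100 kb, against 4.6% of all tested coding genes that had one of them as a neighbor. Of 210 called lower, 34 (16.2%) had one, against 5.1%. Several of these groups are gene families (Gbp, Tgtp, Klr, Slfn), whose reads can be split between copies. Fbxl21 lies beside Il9 and rose from 0.124 ± 0.067 to 0.892 ± 0.114 FPKM (log2 fold change 2.18, adjusted p = 2.33e-05), and Chdh lies beside Il17rb and fell from 2.34 ± 0.157 to 1.38 ± 0.122 FPKM; both were chosen after their values were seen. Among variable segments of the T cell receptor, 7 of 21 in the beta group fell (median -0.32). In the alpha group 4 of 79 fell (median -0.29), a smaller share than the 13.1% of all tested genes, and none rose in either group. Of the 464 called genes, 254 had a mean below 1 FPKM, and 54 had at most 20 reads in each of the 6 libraries, among them 16 of the 19 called short noncoding genes.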
